A study of Homo sapiens with 4 samples.

Results

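The genes described here are the nuclear-encoded genes of oxidative phosphorylation, in A549 cells, an established line from a human lung adenocarcinoma. They were chosen by symbol, as every row of the deposited count table that begins with NDUF, UQCR, COX4 to COX8 or ATP5, or that is SDHA, SDHB, SDHC or SDHD. This gave 94 of 19399 rows, of which 80 encode subunits of complexes I to V, 8 encode assembly factors of complex I and 6 are something else. A549 cells in which NUPR1 was knocked down were compared with control A549 cells; the product of this gene, p8, is a small nuclear protein induced by stress. Polyadenylated RNA of 4 libraries was sequenced, 1 single-end and 1 paired-end in each group, and the table holds 1 column of whole-number reads per group. The labels give neither the agent of the knockdown nor its duration, nor what the control cells received, and the culture behind each library is not stated.

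With 1 column per group no value had a replicate, no difference could be tested and no p-value is given. Levels are counts per 1e+06 reads (CPM) after scaling of the column totals with TMM factors, and ratios are given on the log2 scale, knockdown over control, each with its exact 95% interval. These intervals hold the error of counting alone, and a ratio whose interval leaves out 0 separates the columns without being shown to separate the conditions. The columns held 16635336 reads (knockdown) and 20289107 reads (control). NUPR1 was lower in the knockdown column, with 71 reads against 197 (log2 ratio -1.21, interval -1.63 to -0.81). Of 5 epithelial markers, the keratins KRT8 and KRT18 were abundant in both columns, at 10480 CPM and 9129 CPM in the knockdown column. KRT19 had 22 and 46 reads, EPCAM had 4.05 CPM and 4.18 CPM, and CDH1 had 71.3 CPM in knockdown cells against 43.0 CPM in control cells (0.73, interval 0.60 to 0.86). Alveolar type II markers were low, and 7 of 8 listed summed to 38.5 CPM and 33.5 CPM, most of it from ABCA3. Markers of leukocytes, fibroblasts, endothelium, red cells and muscle reached at most 27 reads for any gene in either column. In such bulk samples fewer cells of a type and less RNA per cell cannot be told apart.

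Oxidative phosphorylation is the chain of protein complexes in the inner mitochondrial membrane that passes electrons from NADH and succinate to oxygen and uses the resulting proton gradient to make ATP. Complex I oxidises NADH, complex II oxidises succinate, complex III passes electrons from ubiquinol to cytochrome c, complex IV reduces oxygen, and complex V is the ATP synthase. Complex II is made wholly of nuclear gene products, whereas the others also hold subunits encoded by mitochondrial DNA, which were not analysed here. Many of these nuclear genes have binding sites of the transcription factors NRF1, GABPA and YY1 in their promoters. NRF1 is nuclear respiratory factor, a different protein from the antioxidant regulator that shares part of its name.

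The 5 complexes had nearly equal transcript levels in both columns. Of 80 subunit rows, 75 had a mean of at least 5 CPM over the columns, and 71 of these lay within 0.32 log2 units of equal levels, the threshold used throughout (25% higher or 20% lower). The exceptions were SDHD and ATP5L, on the higher side in knockdown cells, and ATP5J2 and NDUFV3, on the lower side. They made up 5.33% of the subunits, whereas 26.3% of all 10689 genes with a mean of at least 5 CPM passed the threshold in either direction (12.9% higher and 13.4% lower). Among genes with a mean of at least 20 CPM, 3 of 66 subunits and 21.1% of all genes passed it. None of the subunits reached 1.5-fold, which 8.17% of all genes did, and none reached 2-fold, which 2.12% did. The threshold of 0.32 log2 units was set low because earlier results of these data had shown small ratios in this set. The shares at it are therefore a description and not a test.

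The median log2 ratio of the 75 subunits was 0.01, as was that of all genes. Of these subunits 40 were above 0 and 35 below. The interquartile range of the subunits was 0.25 log2 units (-0.15 to 0.11), against 0.37 for all genes and 0.32 for genes with a mean of at least 20 CPM. The subunits were counted with more reads than most genes, and the median distance from a ratio to the end of its interval was 0.12, against 0.17 for all genes and 0.13 for those of at least 20 CPM. The interval lay above 0 for 17 subunits and below 0 for 16, and held 0 for 42. Among all genes it lay above 0 for 27.9% and below 0 for 26.4%. Summed over the 80 subunits, reads were 0.735% of the knockdown column and 0.709% of the control column, a log2 ratio of the sums of 0.03 (0.01 to 0.04).

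**Figure D1:**
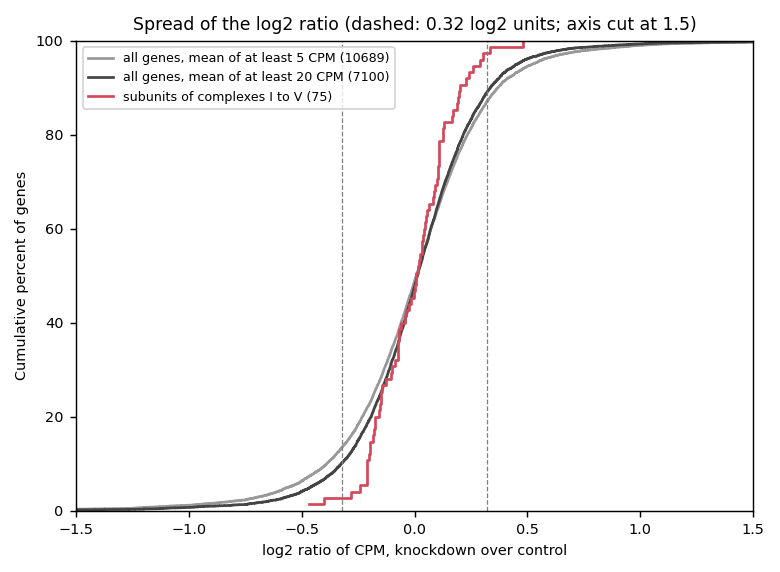
Cumulative percent of genes (vertical axis) by log2 ratio of CPM, knockdown over control (horizontal axis), for 75 subunits of complexes I to V, all 10689 genes with a mean of at least 5 CPM and all 7100 genes with a mean of at least 20 CPM. The subunit curve is the steepest, with 71 of 75 genes between the dashed lines at 0.32 log2 units, and all 3 curves cross 50% near 0.

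Promoters of 6 members are shown first, as the highest and the lowest ratio of complexes II, IV and V among genes with 1 start in the reference table, to show what promoters with and without letters of the classical regulators look like. SDHA is the lowest of complex II only among genes with such a window, and its log2 ratio was 0.05. Likewise ATP5J2, lower than ATP5E, had no window, and COX7A2 and COX7A2L, higher than COX5A, had 2 starts each. The sequences are RefSeq's for the GRCh38.p14 build, another build than the hg19 of the deposited tables, and give the 250 bases before the gene's start, 5′ to 3′ on the gene's strand. Capitals mark matches on either strand to the NRF1 pattern, to CCGGAAG (GABPA and other ETS factors) and to ATGGCGG (YY1). SDHD lies at chr11:112086623-112086872 on the plus strand, SDHA at chr5:218070-218319 on the plus strand, COX5A at chr15:74938074-74938323 on the minus strand, COX5B at chr2:97645812-97646061 on the plus strand, ATP5L (now ATP5MG) at chr11:118401356-118401605 on the plus strand and ATP5E (now ATP5F1E) at chr20:59032336-59032585 on the minus strand.
SDHD: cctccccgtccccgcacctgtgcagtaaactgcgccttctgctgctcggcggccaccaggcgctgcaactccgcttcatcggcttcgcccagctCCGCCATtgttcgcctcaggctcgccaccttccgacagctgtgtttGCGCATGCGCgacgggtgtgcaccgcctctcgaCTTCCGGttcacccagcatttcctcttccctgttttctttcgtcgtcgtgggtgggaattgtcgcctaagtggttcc
SDHA: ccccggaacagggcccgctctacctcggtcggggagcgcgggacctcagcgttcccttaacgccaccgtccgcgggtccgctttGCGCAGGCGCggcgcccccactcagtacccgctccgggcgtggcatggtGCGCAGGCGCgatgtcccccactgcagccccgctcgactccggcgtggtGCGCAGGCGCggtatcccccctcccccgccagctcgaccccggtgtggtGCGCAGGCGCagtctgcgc
COX5A: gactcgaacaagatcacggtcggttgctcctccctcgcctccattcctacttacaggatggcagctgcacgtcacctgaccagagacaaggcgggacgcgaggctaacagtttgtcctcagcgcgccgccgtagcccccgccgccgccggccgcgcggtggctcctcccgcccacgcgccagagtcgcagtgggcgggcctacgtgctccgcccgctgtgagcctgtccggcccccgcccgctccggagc
COX5B: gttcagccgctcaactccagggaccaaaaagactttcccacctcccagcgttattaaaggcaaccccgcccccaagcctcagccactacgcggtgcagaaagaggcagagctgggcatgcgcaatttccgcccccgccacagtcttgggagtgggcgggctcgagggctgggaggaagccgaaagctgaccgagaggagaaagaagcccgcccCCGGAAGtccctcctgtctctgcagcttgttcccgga
ATP5L: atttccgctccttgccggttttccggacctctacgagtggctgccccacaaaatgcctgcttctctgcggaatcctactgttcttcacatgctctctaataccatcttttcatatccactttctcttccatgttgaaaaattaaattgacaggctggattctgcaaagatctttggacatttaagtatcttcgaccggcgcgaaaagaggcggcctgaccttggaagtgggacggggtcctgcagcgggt
ATP5E: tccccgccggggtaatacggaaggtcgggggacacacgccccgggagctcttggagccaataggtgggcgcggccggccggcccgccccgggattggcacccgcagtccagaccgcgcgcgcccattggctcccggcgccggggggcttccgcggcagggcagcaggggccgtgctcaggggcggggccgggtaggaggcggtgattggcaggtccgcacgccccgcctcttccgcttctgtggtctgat
The NRF1 pattern stands as GCGCATGCGC in the SDHD line, with any base allowed at the fifth position, and read on the other strand as GCGCAGGCGC in the SDHA line. The SDHD window holds 1 match to each of the 3 motifs, the SDHA window 4 to the NRF1 motif, and the COX5B window 1 to the ETS motif. In the COX5A, ATP5L and ATP5E windows none of the 3 patterns occurs, which says nothing of whether the factors bind there.

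Promoter windows were found for 65 of the 80 subunits. The NRF1 pattern occurred in 13 of them (20%), against 7.66% of 15843 protein-coding promoters in the same table. The ETS pattern occurred in 16 (24.6%, against 11.8%) and the YY1 pattern in 5 (7.69%, against 3.09%). A GC box (GGGCGG on either strand) was as common in the subunits as elsewhere, at 56.9% against 55.8%, and the windows had a median GC content of 60.8% against 62%. At least 1 of the 3 regulator patterns was present for 29 subunits (44.6%, against 20.2%). The measured subunits with such a pattern (28) had a median log2 ratio of -0.03 and those without (34) had 0.02. Whether members with and without these patterns differ was not tested.

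Complex I, the NADH dehydrogenase and the largest of the complexes, had nearly the same level in both columns. All 37 subunit genes passed 5 CPM, with 19 above and 18 below equal levels and a median log2 ratio of 0.01. NDUFV3 passed the threshold, and with the GC trend of all genes removed NDUFS7 did as well (0.41). Their reads summed to 40128 against 49206, or 2389 CPM against 2448 CPM (log2 ratio -0.04, interval -0.05 to -0.02). The 7 nuclear-encoded core subunits, which carry the flavin and the iron-sulfur clusters, had a median of 0.04, and the 30 supernumerary subunits around them had a median of -0.03.

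Among the core subunits, NDUFV1, which binds FMN and holds the NADH site, had 155 CPM in knockdown cells against 136 CPM in control cells (log2 ratio 0.19, interval 0.12 to 0.27). NDUFS7, which carries the last cluster before the quinone, had the highest ratio of the complex at 0.26. It had 214 reads in each column, 12.7 CPM against 10.7 CPM, and its interval (-0.02 to 0.54) held 0. NDUFS8, a further iron-sulfur subunit, went the other way, with 47.9 CPM against 55.5 CPM (-0.21, interval -0.35 to -0.08). The core genes NDUFS1, NDUFS3 and NDUFV2 had log2 ratios of 0.04, -0.07 and -0.09 with intervals that held 0. Core subunits that sit in the same enzyme thus lay on both sides of equal levels in these columns.

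Of the supernumerary subunits, NDUFV3, an accessory subunit of the NADH-oxidising tip, had the lowest ratio, with 28.1 CPM in knockdown cells against 37.1 CPM in control cells. This 1.32-fold lower level gave a log2 ratio of -0.40 with an interval from -0.57 to -0.23. NDUFS5, a small subunit on the intermembrane face, had 208 CPM against 254 CPM, and its ratio of -0.28 had a narrow interval (-0.35 to -0.22) because it rested on 3498 and 5097 reads. NDUFA13, also known as the cell death regulator GRIM-19, had 32.0 CPM against 37.9 CPM (-0.24, interval -0.41 to -0.08). NDUFB4, of the membrane arm, had 30.0 CPM against 34.8 CPM (-0.21). The highest supernumerary ratios were smaller in size. NDUFB9, a membrane arm subunit, had 150 CPM against 131 CPM (0.20, interval 0.12 to 0.28), and NDUFB6 had 28.5 CPM against 25.03 CPM (0.19). Of the 30 supernumerary genes, 10 had an interval below 0 and 3 above 0, beside 26.4% and 27.9% of all genes.

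**Figure D2:**
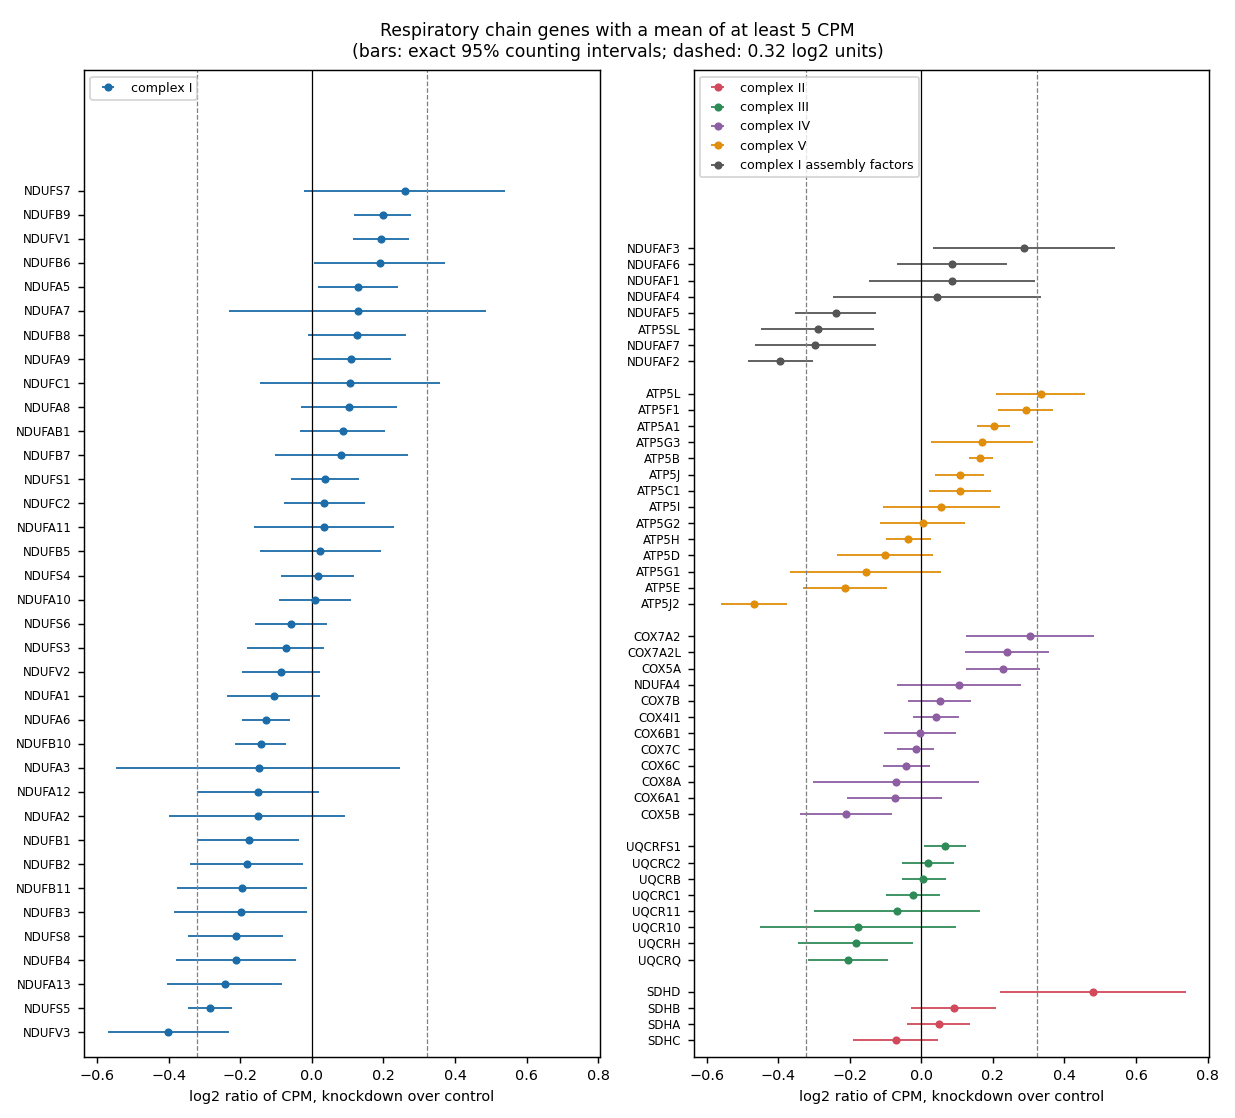
log2 ratio of CPM, knockdown over control (horizontal axis), for subunits and complex I assembly factors with a mean of at least 5 CPM, sorted within each complex, with 1 subunit not drawn; points are ratios, bars exact 95% counting intervals and dashed lines 0.32 log2 units. Among the genes shown, SDHD and ATP5L lie to the right of the dashed lines and ATP5J2, NDUFV3 and NDUFAF2 to the left.

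Complex II, the succinate dehydrogenase, has a catalytic head of SDHA and SDHB and a membrane anchor of SDHC and SDHD, and its median log2 ratio was 0.07. SDHD had the highest log2 ratio of all subunits, 0.48 (0.22 to 0.74), a 1.39-fold higher level. It rested on few reads, 269 (knockdown) and 231 (control), or 16.0 CPM against 11.5 CPM. Its partner in the anchor, SDHC, had 62.8 CPM against 66.0 CPM (-0.07, interval -0.19 to 0.05). SDHA, the flavoprotein, had 119 CPM against 115 CPM (0.05, interval -0.04 to 0.13), and SDHB, the iron-sulfur protein, 66.0 CPM against 62 CPM (0.09, interval -0.03 to 0.21). So 3 of the 4 genes had nearly equal levels, and the fourth was also the least abundant. Per length, the deposited values were 7.3 RPKM for SDHD in the control column, against 23.0 for SDHC, 34.4 for SDHA and 54.3 for SDHB.

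Complex III, the cytochrome bc1 complex, had 8 of 9 rows above 5 CPM, all within the threshold, and their median log2 ratio was -0.04. CYC1, its cytochrome c1, lies outside the symbol rule and is not among these rows. The core proteins UQCRC1 and UQCRC2 had 155 CPM against 158 CPM and 166 CPM against 164 CPM, with ratios of -0.02 and 0.02. UQCRFS1, the Rieske iron-sulfur protein, had 252 CPM against 241 CPM, a ratio of 0.07 (0.01 to 0.13). Small supernumerary subunits were slightly lower in 4 of 5 cases. UQCRQ had 67.5 CPM against 77.7 CPM (-0.20, interval -0.32 to -0.09) and UQCRH, the hinge protein that binds cytochrome c1, had 32.5 CPM against 36.9 CPM (-0.18, interval -0.35 to -0.02). UQCR10 and UQCR11 had ratios of -0.18 and -0.07 with intervals that held 0, and UQCRB, a ubiquinone-binding subunit, had 234 CPM against 233 CPM. UQCRHL, a copy of UQCRH, had 3 and 8 reads, and reads shared between the copies make both values uncertain.

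Complex IV, cytochrome c oxidase, had 12 of 15 rows above 5 CPM, 6 on each side of equal levels, with a median log2 ratio of 0.02 and none past the threshold. NDUFA4, long assigned to complex I, is counted here because its protein is a subunit of complex IV, and had 31.2 CPM against 29.01 CPM (0.11). The highest ratio was that of COX7A2, with 31.4 CPM in knockdown cells against 25.4 CPM in control cells (0.30, interval 0.13 to 0.48), a 1.23-fold higher level. COX7A2L, a relative of COX7A2 that links complexes III and IV into a supercomplex, had 71.2 CPM against 60.3 CPM (0.24, interval 0.12 to 0.36). COX5A had 89.2 CPM against 76.1 CPM (0.23, interval 0.12 to 0.33), whereas COX5B, the zinc-binding subunit, had 51.0 CPM against 59.0 CPM (-0.21, interval -0.34 to -0.08). The paired names COX5A and COX5B denote different subunits of the same enzyme, and their intervals did not overlap. COX4I1, the main form of the regulatory subunit, had 224 CPM against 218 CPM (0.04), COX7B had 0.05, and COX6B1, COX6A1, COX8A, COX6C and COX7C had ratios between -0.07 and 0.00 whose intervals held 0.

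The forms of complex IV subunits that are known from muscle, testis or hypoxic tissue were near 0 in both columns. COX7A1, the heart and muscle form, had 2 reads (knockdown) and 0 (control). COX6B2, the testis form, had 1 and 3 reads, and no ratio is given for either. NDUFA4L2, a hypoxia-induced relative of NDUFA4, had 12 and 19 reads, or 0.71 CPM and 0.95 CPM, with an interval from -1.58 to 0.71 around a log2 ratio of -0.40. COX7A2, the ubiquitous form, had 527 and 511 reads beside them. COX4I2, COX6A2, COX7B2 and COX8C had no row under these symbols among the rows used and were not analysed here. A count of 0 allows up to 3 reads, which is 0.15 CPM in the control column.

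Complex V, the ATP synthase, had a median log2 ratio of 0.08, over single genes from -0.47 to 0.33. Summed over its 15 rows, the level was 2383.5 CPM in knockdown cells against 2221 CPM in control cells (log2 ratio 0.10, interval 0.08 to 0.12). Of 14 genes above 5 CPM, 9 were higher and 5 lower, with 7 intervals above 0 and 2 below, beside 27.9% and 26.4% of all genes. The catalytic F1 head was slightly higher in sum, with 1488 CPM in knockdown cells against 1347 CPM in control cells (log2 ratio 0.14, interval 0.12 to 0.17). This sum was mostly ATP5B, the catalytic beta subunit, with 826 CPM against 737 CPM (0.17, interval 0.13 to 0.20), and ATP5A1, the alpha subunit, with 431 CPM against 375 CPM (0.20, interval 0.16 to 0.25). The gamma subunit ATP5C1 had 122 CPM against 113 CPM (0.11). Of the small subunits of the central stalk, ATP5E was lower, at 61.5 CPM against 71.3 CPM (-0.21, interval -0.33 to -0.10). ATP5D had -0.10 with an interval that held 0, and 0.05 with the GC trend of all genes removed.

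The ATP synthase also held the lowest and one of the highest subunit ratios. ATP5J2, the f subunit of the membrane part, had 91.8 CPM in knockdown cells against 127 CPM in control cells (log2 ratio -0.47, interval -0.56 to -0.38), a 1.38-fold lower level from 1542 and 2550 reads. ATP5L, the g subunit, which with the e subunit helps the enzyme to form dimers, had 64.7 CPM against 51.4 CPM (0.33, interval 0.21 to 0.46), a 1.26-fold higher level, and 0.28, short of the threshold, with the GC trend removed. ATP5I, the e subunit, had 34.2 CPM against 32.9 CPM (0.06). ATP5F1, the b subunit of the outer stalk, was higher with 164 CPM against 134 CPM (0.29, interval 0.22 to 0.37), and its neighbours in the stalk ATP5J and ATP5H had 0.11 and -0.04. ATP5J2-PTCD1, a readthrough transcript over ATP5J2, had 22 reads against 11 in the opposite direction, under 5 CPM, and reads from the shared exons cannot be assigned with certainty.

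The ring of c subunits is encoded by ATP5G1, ATP5G2 and ATP5G3, whose mature proteins are identical. ATP5G1 had 19.5 CPM against 21.7 CPM (-0.16, interval -0.37 to 0.05), ATP5G2 63.5 CPM against 63.3 CPM (0.00) and ATP5G3 46.4 CPM against 41.2 CPM (0.17, interval 0.03 to 0.31). Summed over the 3 genes the level was 129 CPM against 126 CPM, a ratio of 0.03 (-0.05 to 0.12). The order ATP5G2, ATP5G3, ATP5G1 by CPM was the same in both columns, and gene lengths differ, so it is an order of reads and not of molecules. Reads of near-identical coding stretches may have been split among these genes.

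**Figure D3:**
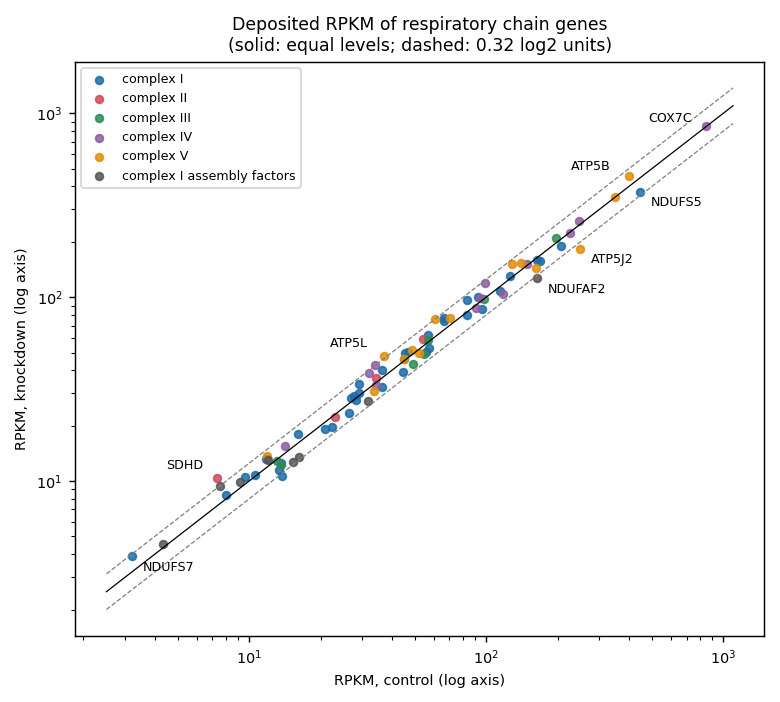
Deposited RPKM in the control column (horizontal log axis) and the knockdown column (vertical log axis) for 83 genes with a mean of at least 5 CPM; the solid line marks equal RPKM and dashed lines 0.32 log2 units. Levels run from NDUFS7 at 3.19 RPKM to COX7C at 844 RPKM in the control column, a 265-fold range, and stay close to the solid line over all of it.

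Levels within a complex differed far more between genes than between columns. Per length, in deposited RPKM of the control column, complex I ran from 3.19 (NDUFS7) to 445 (NDUFS5) with a median of 36.4. Complex IV ran from 14.1 (NDUFA4) to 844 (COX7C) with a median of 96.5, and complex V from 11.9 (ATP5G3) to 401 (ATP5B) with a median of 65.5. Medians in the knockdown column were 39.2, 101 and 76.6 for these 3 complexes. For complexes II and III the medians were 28.7 and 52 in the control column and 29.3 and 47.6 in the knockdown column. Deposited gene lengths of the measured subunits run from 407 to 8371 bases and how they were derived is not given, so a long deposited length lowers the RPKM of that gene in both columns. ATP5O, the OSCP subunit that ties the outer stalk to the head, had only 57 and 71 reads, 2.49 RPKM and 2.54 RPKM, and did not pass 5 CPM, although its log2 ratio of -0.06 (-0.59 to 0.47) was near 0. In GENCODE release 29, 45 of the 80 subunit genes have at least 1 pseudogene named after them, with up to 17 (COX6C), and how reads that match several copies were counted is not given.

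Ratios of the subunits were also described by gene length. Of 35 measured subunits with a deposited length under 1000 bases, 24 lay below equal levels and 11 above, with a median log2 ratio of -0.07. Their intervals lay below 0 for 9, above 0 for 3 and held 0 for 23. Of 40 subunits of at least 1000 bases, 29 lay above and 11 below, with a median of 0.04. Their intervals lay above 0 for 14, below 0 for 7 and held 0 for 19. All genes under 1000 bases had a median of -0.03 (209 of 381 lower), and all longer genes 0.01. Of the 381 shorter genes, 92 had an interval below 0 and 84 above 0. Of the 10308 longer genes, 2734 had an interval below 0 and 2896 above 0. With the trend of all genes on length removed, the subunit medians were -0.06 and 0.03. The libraries of each column were sequenced in different layouts, and the part of length or layout in these values was not tested. Supernumerary genes of complex I had a median length of 850 bases and core genes 2650, and with the trend removed their median log2 ratios were -0.04 and 0.02. In complex III, where these lengths were 1335 and 1617 bases, the medians were then -0.17 and 0.01.

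**Figure D4:**
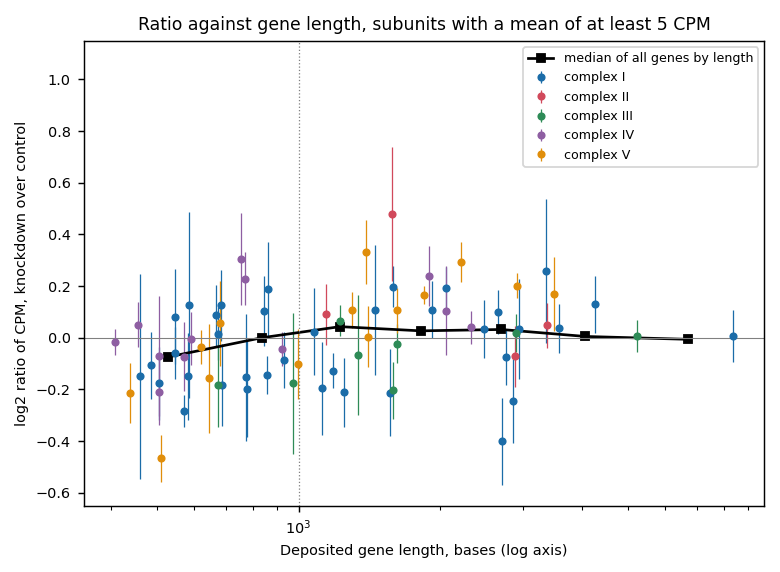
log2 ratio of CPM, knockdown over control (vertical axis), against deposited gene length in bases (horizontal log axis) for 75 subunits, with exact 95% counting intervals as bars and the median of all genes in length bins as black squares; the dotted line marks 1000 bases. Subunits under 1000 bases have points below 0 in 24 of 35 cases and longer ones above 0 in 29 of 40, and many bars cross 0.

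The 8 assembly factors of complex I in the set divided 4 to 4, with a median log2 ratio of -0.10 and an interquartile range of 0.38, against 0.25 for the subunits. The median was -0.14 with the length or the GC trend removed and -0.29 with a mean of at least 20 CPM required. Such factors help to build the enzyme and are not part of it. NDUFAF2, which binds a late assembly intermediate, had 94.7 CPM in knockdown cells against 124 CPM in control cells (-0.39, interval -0.48 to -0.30), a 1.31-fold lower level from 1590 and 2500 reads. NDUFAF7, a mitochondrial methyltransferase, had 29.1 CPM against 35.7 CPM (-0.30, interval -0.47 to -0.13). ATP5SL, despite its name a factor for the membrane arm of complex I, had 32.8 CPM against 40.1 CPM (-0.29), and NDUFAF5, which modifies NDUFS7, had 64.4 CPM against 76.0 CPM (-0.24). All 4 intervals lay below 0, and these genes were named as the 4 lowest of the 8. Over all 8 factors, 4 intervals lay below 0 and 1 above, beside 26.4% and 27.9% of all genes. On the other side NDUFAF3 had 15.5 CPM against 12.7 CPM (0.29, interval 0.03 to 0.54), while NDUFAF1, NDUFAF4 and NDUFAF6 had 0.09, 0.04 and 0.09 with intervals that held 0. Counting these factors, 5 of 83 genes passed the threshold, 2 higher and 3 lower, against 26.3% of all genes. With the column totals alone as scaling the numbers were 3 and 3, with COX7A2 added, as they were with the deposited RPKM, and with median-of-ratios or upper-quartile scaling 1 and 3, without ATP5L.

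The remaining 6 rows encode no subunit. ATP5S, a coupling factor related to ATP5SL, had 15.7 CPM against 12.8 CPM (0.29, interval 0.04 to 0.55). The antisense genes NDUFA6-AS1 and NDUFB2-AS1 had 29 against 31 and 5 against 9 reads, the pseudogene ATP5EP2 had 7 against 9, and the readthrough NDUFC2-KCTD14 had 2 against 1. Whether counting used strand is not given, so reads of an antisense gene and its partner cannot be told apart.

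Other genes of the pathway were described from lists of symbols, and symbols without 1 matching row were left out. Of 50 assembly factors listed outside the symbol rule, 40 had such a row. Of these 40, 25 lay above equal levels and 15 below, with a median log2 ratio of 0.06. On the higher side 6 (15%) passed the threshold and none on the lower, beside 12.9% and 13.4% of all genes. SURF1 and TTC19, which serve complexes IV and III, had 0.55 (0.26 to 0.84) and 0.46 (0.34 to 0.58), and NUBPL and ATPAF2, which serve complexes I and V, had -0.27 each. The list labelled electron carriers and inhibitors had 9 genes and a median of 0.12. It also holds carriers of adenine nucleotides and phosphate, and CYC1. There the adenine nucleotide carriers differed, with SLC25A5 at 0.19 and SLC25A4 at -0.39, while SLC25A3, the phosphate carrier, had 0.14, the cytochrome c gene CYCS 0.07, CYC1, the cytochrome c1 of complex III, 0.04, ETFDH, which feeds electrons from fatty acid oxidation to ubiquinone, 0.16, and ATPIF1, which inhibits the ATP synthase, -0.24.

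Regulators of mitochondrial biogenesis differed little. Of 10 measured, 1 passed the threshold, PPRC1 at -0.34 (-0.45 to -0.22), and the median was -0.03. YY1 and GABPA had 0.22 and 0.19 and GABPB1 had -0.17. Genes of mitochondrial DNA upkeep and transcription spread further, and 5 of 14 passed the threshold. TFAM, which packages mitochondrial DNA and starts its transcription, had 61.5 CPM in knockdown cells against 96.2 CPM in control cells (log2 ratio -0.65, interval -0.76 to -0.54), a 1.56-fold lower level. TK2, a mitochondrial thymidine kinase, had -0.57. TFB2M, the other initiation factor of mitochondrial transcription, went the opposite way with 62.1 CPM against 43.7 CPM (0.51, interval 0.38 to 0.64), and the elongation factor TEFM had 0.36.

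Citric acid cycle enzymes had a median of 0.07, with 3 of 14 past the threshold, all higher (21.4%, beside 12.9% of all genes on that side). SUCLA2 and IDH3B had 0.46 and 0.37, and IDH2 and OGDH had -0.25 and -0.15. Mitochondrial protein import had a median of 0.03 over 24 genes, with 3 past the threshold, all higher (12.5%, beside the same 12.9%). The receptor TOMM70A and the small chaperone TIMM8A had 0.36 and 0.34, and GRPEL1 and TIMM17A had -0.26 and -0.22. Counting both directions, the list of mitochondrial DNA upkeep had a share past the threshold (35.7%, on 14 genes) above the 26.3% of all genes. Each of the other lists had a share below 26.3% on this count. All genes with a mean of at least 20 CPM had a share of 21.1%, near the 21.4% of the citric acid cycle, whose genes all reach that mean.

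**Figure D5:**
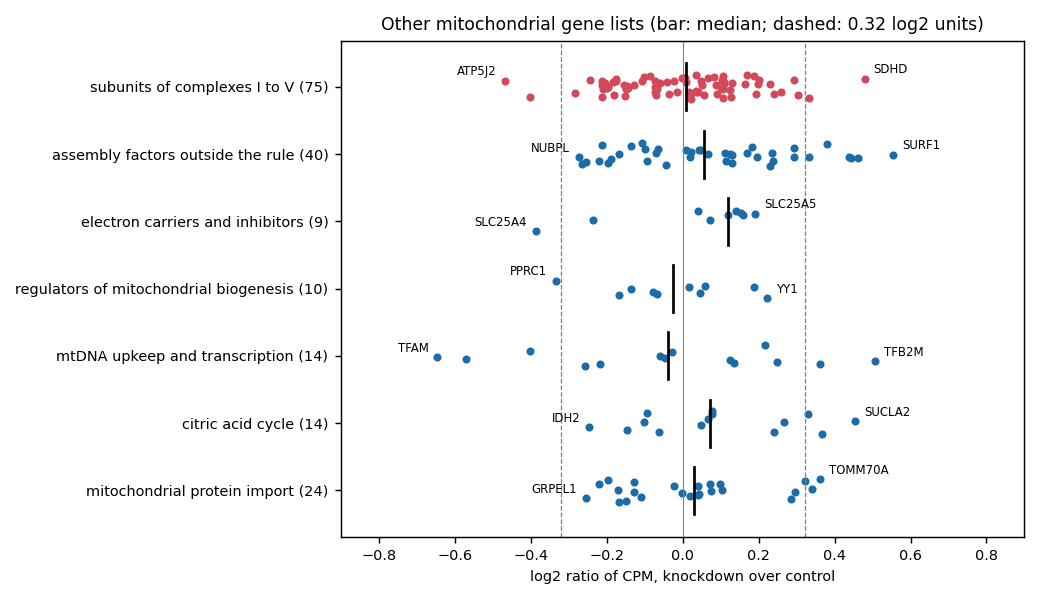
log2 ratio of CPM, knockdown over control (horizontal axis), for 75 subunits and 6 further lists of mitochondrial genes with a mean of at least 5 CPM (vertical axis, number of genes in parentheses); points are genes, spread vertically for visibility, bars are medians and dashed lines 0.32 log2 units. The medians lie between -0.04 and 0.12, and TFAM at -0.65 and SURF1 at 0.55 are the extreme genes.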

How the data were processed

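The authors deposited whole-number read counts per gene for 19402 rows and RPKM values for 19381 rows, each with 1 column per group, and a gene length in bases. RPKM values above 1 follow, to 1%, from counts and lengths of the tables with a single depth for each column. The submitters' processing notes name hg19, TopHat2 2.0.10 and edgeR 3.2.2 without their roles. Not given in the sources used here are the counter, the annotation, the strand setting and how libraries of both layouts were joined. The header of the knockdown column lacks a letter of the corresponding titles; it was assigned because no other title begins alike. There were 0 further columns of values.

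For this description, 3 rows with a broken name or length were left out (0.0872% and 0.0509% of reads). TMM factors, 1.01 (knockdown) and 0.991 (control), were computed with edgeR 4.0.16 in R 4.3.3 on rows passing filterByExpr, and DESeq2 1.42.0 gave an alternative scaling. Ratio intervals are exact conditional (Clopper-Pearson) at 95%, with scipy 1.17.1. The ratio and trend steps were run on simulated counts with counting error alone, which checks the code and not the ratios of these data. Reads carry no molecular identifiers, so intervals and the floor of 3 reads cover counting error only. At this depth 1 read is worth 0.0595 CPM (knockdown) and 0.0498 CPM (control). The edgeR quasi-likelihood test of the design could not be used with 1 column per group, and the fallback written there, ratios with counting intervals, was. The members and lists were chosen with earlier results of these data known. Named genes were all of complexes II and III, the 4 highest and 4 lowest of the other classes, core, F1, c-ring and isoform genes, and the 2 highest and 2 lowest of each further list. CYC1, CYCS, SLC25A3 and some subunits of complexes I, IV and V lie outside that rule and were named after their values were seen. The values of 1 member are not reported here, though counts and medians include it. Older symbols were matched through RefSeq synonyms. Windows of 250 bases before the start came from RefSeq's promoter table, for 72 of 88 subunit and assembly factor genes, and the most upstream start was taken where several are listed.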

Additional observations from a re-analysis of the deposited data

How the results depend on the processing

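No paired analysis was possible because libraries are not separate in the tables. Leaving out each library, the layout as a block and the DESeq2 test were therefore not run. Over 14 alternatives the median log2 ratios of the 5 complexes, of all subunits and of the assembly factors gave 93 values. The median of the assembly factors moved from -0.10 to -0.29 where a mean of at least 20 CPM was required, a setting chosen after seeing the data, which left out the less abundant factors. The median of all subunits lay between -0.01 and 0.04, of complex I between -0.04 and 0.04 and of complex II between 0.05 and 0.10. The median of complex III lay between -0.08 and -0.01, of complex IV between -0.003 and 0.048 and of complex V between 0.06 and 0.11. Members past the threshold of 0.32 log2 units numbered 2 on the higher side, 3 with column totals and with RPKM plus a pseudocount of 1 or 0.1, where COX7A2 was added, and 1 with median-of-ratios scaling, with upper-quartile scaling, with the length trend removed and with a minimum mean of 20 CPM. On the lower side they numbered 3, and 5 with the length trend removed, where NDUFAF7 and ATP5SL were added, or with no filter on low counts, where NDUFA4L2 and UQCRHL were added. With the GC trend removed the numbers were 3 and 4: ATP5L no longer passed (0.28), while NDUFS7 (0.41), NDUFAF3 (0.44) and NDUFAF7 (-0.35) did. For these counts the cause was not tested, beyond the change in the genes admitted. Among all genes, 1380 were higher and 1436 lower past the same threshold, and 929 were lower with RPKM plus a pseudocount of 1, 2224 with a minimum mean of 1 CPM, 3113 higher and 3399 lower with no filter, and 775 and 720 with a minimum mean of 20 CPM. Of 673 values of single named genes, 4 moved beyond their counting interval: ATP5B to 0.13 with the length trend removed, and UQCRC1, UQCRB and ATP5D to 0.06, -0.06 and 0.05, each with its sign turned, with the GC trend removed. No scaling moved the median of all genes by more than 0.05. Genes with few reads, such as SDHD and NDUFS7, have wide intervals, and at this depth the levels of COX7A1, COX6B2 and UQCRHL were not measurable.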

Other observations

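In GENCODE release 29, 15 of the 88 subunit and assembly factor genes (17.0%) have the start of another protein-coding gene within 1000 bases upstream on the opposite strand, against 7.36% of 19969 protein-coding genes. NDUFAF2, the assembly factor with the lowest ratio, shares such a region with the DNA repair gene ERCC8, which had 243 reads (knockdown) and 363 (control), a log2 ratio of -0.32 (-0.56 to -0.08) beside -0.39 for NDUFAF2. NDUFB1 and its neighbour CPSF2, which encodes a subunit of the RNA cleavage and polyadenylation complex, had -0.18 and -0.23, with both intervals below 0. NDUFAF5 and ESF1 had -0.24 and -0.08, also with both intervals below 0. NDUFS6 and MRPL36 had -0.06 and -0.11, and NDUFB5 and MRPL47 had 0.02 and 0.20, and of these only the interval of MRPL47 left out 0. SDHA and CCDC127 had 0.05 and 0.12, UQCRH and LRRC41 -0.18 and -0.08, and UQCR10 and ZMAT5 -0.18 and 0.025. In these pairs only the interval of UQCRH left out 0. The pair of ATP5C1 and KIN lay on opposite sides of equal levels, at 0.11 and -0.30 with intervals that excluded 0. NDUFV3, the complex I gene with the lowest ratio (-0.40), has WDR4 as its neighbour, at -0.06 with an interval from -0.25 to 0.13. These are descriptions of 2 columns, and the pairs were described after their values were seen. Pairs whose neighbour had no row with a mean of at least 5 CPM are not given.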
